A study of Mus musculus with 8 samples.

Results

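Mouse embryonic stem (ES) cells were compared with mouse embryonic fibroblasts (MEF) in 4 of the 8 RNA-seq libraries of the series. The ES libraries are biological duplicates of the D3 line carrying GFP, with the genetic background 129S2/SvPas. The MEF libraries are biological duplicates of fibroblasts of BALB/c embryos. Neither group received a treatment per the labels. The other 4 libraries, induced pluripotent stem (iPS) clones of BALB/c background made with 3 factors (3F) and IL6 at 10 ng/mL or with 4 factors (4F), enter only as values set beside the results. Strain and cell type change together between ES and MEF, so their effects cannot be told apart in this contrast. The ES group is a single line, and the labels do not say from how many embryos the fibroblasts came. The series includes these libraries as references for the 3F + IL6 clones.

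Each deposited table gives 1 value per gene symbol in RPKM, reads per kilobase of transcript scaled to the size of the library. A gene was tested if its RPKM reached 1 in 2 or more of the 4 tables, which kept 12442 of 23389 symbols. Values were compared as log2(RPKM + 1), a scale on which fold changes of low genes come out too small. All differences below are ES minus MEF on that scale. A gene was called when limma gave an adjusted p under 0.05 (Benjamini-Hochberg over the 12442 genes) and the ES and MEF libraries did not overlap.

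ES cells are derived from the inner cell mass of the blastocyst and are held in a self-renewing state by a small network of transcription factors around Oct4, Sox2 and Nanog, with LIF signalling through STAT3 in support. They grow as tightly joined epithelial colonies, cycle rapidly and keep a short G1 phase. Embryonic fibroblasts are mesenchymal cells that attach to a matrix of their own making, carry contractile actin bundles and retain a positional code of Hox gene expression from the part of the embryo they came from. They are also the usual starting cells for reprogramming and a common feeder layer for ES cells.

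The estimated depth was 15800000 and 14900000 reads for the ES libraries and 17800000 and 18100000 for the MEF libraries. Duplicates lay close together, with Pearson r across genes of 0.9948 for ES and 0.9967 for MEF, against 0.670 between the group means. Genes are not independent replicates in these values. The median difference between duplicates was 0.055 in ES and 0.050 in MEF, and the median difference between ES and MEF was 0.882 in size. The first principal component held 98.7% of the variance of the 4 libraries. Defining markers followed the labels in all 4 libraries. The summed level of 8 ES markers was 4996 and 4876 RPKM in ES and 6.76 and 8.48 in MEF, and that of 10 fibroblast markers was 6.124 and 6.201 in ES and 2601 and 2586 in MEF. Sums of the 10 macrophage and leukocyte markers were 18.4 and 19.7 RPKM in ES and 7.16 and 7.05 in MEF. The 5 tested had a median difference of 1.32, with 4 called higher in ES (0 by 2 log2 units or more) and 1 lower. The leukocyte marker Ptprc was listed at 0 in ES and at 0.0494 and 0.0387 RPKM in MEF. Sums of the 8 endothelial markers were 34.2 and 31.2 RPKM in ES and 6.33 and 6.29 in MEF, most of it from Egfl7, while Cdh5 stayed under 0.2 in each library. Neuron markers summed to 183 and 178 RPKM in ES and 33.88 and 34.99 in MEF, most of it from Stmn2, while Rbfox3, Snap25, Syt1 and Dcx were under 0.2 in each library. The other 8 marker lists summed to under 26 RPKM in each library. In bulk RNA, fewer cells of a type and less RNA per cell cannot be told apart. With duplicates, p-values measure only the spread between these libraries, and an exact permutation test of 2 against 2 cannot go below 0.3333.

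Most genes differed. limma called 6707 genes higher in ES (53.9% of those tested) and 4596 lower (36.9%), and 1139 were not called. Of the called genes, 2604 differed by less than 0.5. A second rule therefore asked for a difference of at least 2 log2 units, which is 4-fold on this scale. It was met by 923 genes higher in ES (7.42%) and 1072 lower (8.62%). At the extremes, 161 genes were at 5 RPKM or more in both ES libraries and under 0.1 in both MEF libraries, and 117 genes showed the reverse. The median difference over all genes tested was 0.27, or 0.16 with the libraries centred on the same median, a shift of 0.11. Because 90.8% of genes were called, a list of genes is read below mainly by its members past the second rule and by its median. The shares of 7.42% and 8.62% and the median of 0.27 serve as the background.

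**Figure D1:**
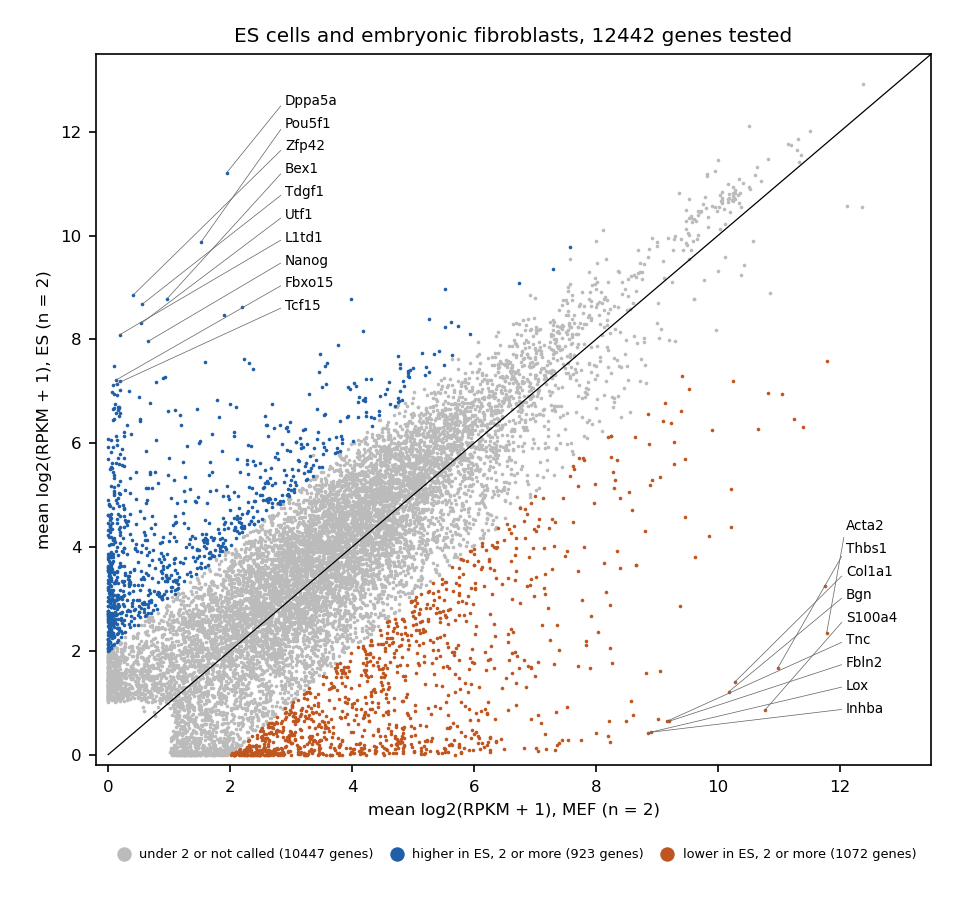
Mean log2(RPKM + 1) of each of the 12442 genes tested in MEF (horizontal axis) and ES (vertical axis), n = 2 libraries each. Blue and orange points are the 923 and 1072 genes called higher and lower in ES by 2 or more. The diagonal marks equal levels, and the genes named among the 10 largest differences of each direction are labelled.

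The 10 largest differences upward were all of genes of the pluripotent state or of the early embryo. Dppa5a, an RNA-binding protein gene of pluripotent cells, led with 2406 and 2335 RPKM in ES against 2.20 and 3.62 in MEF (log2 difference 9.27, SE 0.17, limma adjusted p = 4.1e-07). It was followed by Zfp42 (8.44), Pou5f1 (8.36), Tdgf1 (8.12), L1td1 (7.90), Bex1 (7.82), Utf1 (7.77), Nanog (7.31), Fbxo15 (7.09) and Tcf15 (7.03). Bex1, an X-linked gene, was at 452 and 430.5 RPKM in ES against 0.862 and 1.06 in MEF, and the bHLH factor gene Tcf15 at 142 and 134 RPKM in ES against 0.0619 and 0.0606 in MEF. The 10 largest downward came from matrix, contractile and secreted proteins. S100a4, a calcium-binding protein gene long used as a fibroblast marker, was at 1.10 and 0.578 RPKM in ES against 1778 and 1729 in MEF (log2 difference −9.91, SE 0.13, limma adjusted p = 1.7e-07). Others among the 10 were Acta2 (−9.44), Thbs1 (−9.32), Bgn (−8.97), Col1a1 (−8.88), Fbln2 (−8.55), Tnc (−8.52), Lox (−8.47) and Inhba (−8.43). These genes were picked for the size of their differences, so the wide gap between ES and MEF libraries follows from the choice. In the low group duplicates were not always close, as for Dppa5a in MEF and S100a4 in ES.

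Of the 24 core pluripotency factors and markers, 23 were tested and all 23 were called higher in ES by more than 2, with a median of 5.60. Pou5f1 (chromosome 17, 35506018 to 35510772), which encodes Oct4, measured 953 and 938 RPKM in ES against 1.88 and 1.88 in MEF (log2 difference 8.36, SE 0.025, limma adjusted p = 1.5e-08). Sox2, its partner on DNA, was at 159.9 and 149 RPKM in ES against 1.09 and 0.754 in MEF (6.34). Nanog (chromosome 6, 122707489 to 122714633), the homeodomain factor that stabilises self-renewal, was at 252 and 245 RPKM in ES against 0.462 and 0.694 in MEF (7.31). The 3 factors were thus high in both ES libraries and under 2 RPKM in both MEF libraries. Utf1, a chromatin-bound protein gene of pluripotent cells, was at 319.8 and 314 RPKM in ES against 0.393 and 0.529 in MEF, and Tdgf1, the Nodal co-receptor Cripto, at 406 and 409 RPKM in ES against 0.349 and 0.597 in MEF. Members with housekeeping roles as well were also measured in MEF. The cell cycle factor gene Mybl2 was at 10.6 and 11.1 RPKM there against 179 and 177 in ES, and Rif1, which acts at telomeres and replication origins, at 4.49 and 4.74 against 47.4 and 49.3. Rif1 had the smallest difference of the tested members, 3.14. Dppa3, a maternal factor gene, stayed under the filter at 0.724 and 0.845 RPKM in ES against 0.0711 and 0 in MEF.

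Zfp42 (chromosome 8, 43295063 to 43306980), which encodes the zinc finger protein Rex1, went from 0.343 and 0.305 RPKM in MEF to 467 and 453 in ES (log2 difference 8.44, SE 0.036, limma adjusted p = 2.5e-08). The octamer ATGCAAAT is the DNA word bound by Oct4, and the window from 250 bases before to 50 after the start site was searched for it on both strands. RefSeq windows (GRCm38.p6) were matched for 15 of the 24 genes on the list, and Zfp42 alone held the octamer (6.67%), against 532 of 27025 genes with a window (1.97%). Its 200 bases before the start (chr8:43307010-43307209, minus strand) are shown because the gene is among the most strongly ES-restricted, and the capitals mark the octamer, read on the other strand, 186 bases before the start.
Zfp42: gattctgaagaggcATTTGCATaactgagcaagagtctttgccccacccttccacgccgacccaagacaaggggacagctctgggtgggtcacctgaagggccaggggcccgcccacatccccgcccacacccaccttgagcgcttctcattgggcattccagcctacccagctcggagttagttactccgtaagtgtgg
A match is a description of the letters only.

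Regulators of the naive state, the ground state of ES cells in culture, divided more. Of 17 tested, 15 were called higher in ES (12 by 2 or more) and 2 lower, with a median of 3.60. The orphan nuclear receptor genes Esrrb and Nr0b1 were at 143 and 138 RPKM in ES against 0.0899 and 0.126 in MEF (6.997) and 60.2 and 60.1 RPKM in ES against 0.0313 and 0.0918 in MEF (5.85). Prdm14, a repressor of the primed programme, was at 11.5 and 10.7 RPKM in ES and listed at 0 in both MEF libraries. Klf factors, which fibroblasts also use, differed less. Klf5 was at 149 and 151 RPKM in ES against 18.05 and 17.3 in MEF (3.01), Klf4 at 68.2 and 69.0 RPKM in ES against 18.1 and 17.5 in MEF (1.89) and Klf2 at 36.7 and 35.8 RPKM in ES against 21.7 and 20.2 in MEF (0.76). The naive list ended with Stat3 (29.04 and 28.1 RPKM in ES against 32.7 and 31.6 in MEF; −0.16) and the FGF receptor gene Fgfr2 (−2.09), which were the 2 called lower. Genes of the primed state, the later epiblast stage, were mostly above MEF in ES, at levels that varied between members. The list summed to 137.8 and 134.0 RPKM in ES against 13.73 and 13.46 in MEF. Its members Dnmt3a and Dnmt3b, described below, were higher in ES than Otx2 and Pou3f1. Of 17 listed, 13 were tested, 10 were higher (6 by 2 or more) and 3 lower. Otx2 was at 2.95 and 3.37 RPKM in ES against 0.0652 and 0 in MEF, Pou3f1 at 3.38 and 2.74 RPKM in ES against 0.0922 and 0.0180 in MEF and Nodal at 10.6 and 10.2 RPKM in ES against 0.0267 and 0 in MEF, whereas the classical primed marker Fgf5 was lower in ES, at 0.178 and 0.106 RPKM in ES against 2.51 and 3.15 in MEF (−1.74). Foxa2, T and Cer1, genes of the next lineage steps, did not reach the filter.

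Germline and meiosis genes were on in ES and close to 0 in MEF. Of 29 listed, 22 were tested, 21 were called higher (20 by 2 or more) and 1 lower, with a median of 3.54. Tex19.1, which restrains transposons, was at 103 and 103 RPKM in ES against 0.129 and 0.0948 in MEF (log2 difference 6.54, SE 0.044, limma adjusted p = 3.8e-08), and Dazl, whose RNA-binding protein controls translation in germ cells, at 94.3 and 95.4 RPKM in ES against 0.0943 and 0.0923 in MEF (6.45). The piRNA pathway genes Mael, Piwil2 and Mov10l1 differed by 4.77, 4.04 and 3.44. The meiotic axis and cohesin genes Hormad1, Sycp3, Stag3 and Smc1b differed by 4.39, 3.90, 3.63 and 2.27. Dmc1, the meiotic recombinase gene, was at 5.65 and 5.91 RPKM in ES and listed at 0 in MEF. The exception was Prdm1, which encodes the repressor Blimp1, at 0.752 and 0.994 RPKM in ES against 3.11 and 3.02 in MEF (−1.12). Of the 15 genes of the 2-cell-like state, 0 passed the filter of 1 RPKM in 2 tables. The highest of them was Zscan4f, at 1.40 and 0.924 RPKM in ES and listed at 0 in MEF.

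Genes of other early lineages were mixed. Of 12 tested primitive and visceral endoderm genes, 5 were higher and 6 lower in ES, and the 6 included the basement membrane genes Sparc, Col4a1 and Col4a2 and the thrombomodulin gene Thbd (−5.84), all at 60 RPKM or more in MEF. The lipid carrier gene Apoe was at 196 and 195 RPKM in ES against 3.23 and 4.13 in MEF (5.40). The endoderm factor genes Gata4 and Gata6 were at 1.88 and 1.96 RPKM in ES against 0.114 and 0.0319 in MEF and at 2.93 and 3.10 RPKM in ES against 1.48 and 1.63 in MEF. Of 11 tested trophoblast genes, 6 were higher and 4 lower, with Tfap2c at 9.11 and 9.31 RPKM in ES against 0.0392 and 0 in MEF (3.32), and Gata3 at 0.800 and 0.841 RPKM in ES against 4.41 and 4.69 in MEF (−1.61). Of 16 tested neural genes, 9 were higher in ES (8 by 2 or more) and 7 lower (3 by 2 or more). Beside Sox2 and Gbx2, the neural members higher in ES stayed under 15 RPKM there, with Pax6 at 6.25 and 6.13 RPKM in ES against 0.0351 and 0.0343 in MEF and Sox1 at 4.07 and 4.61 RPKM in ES against 0.0137 and 0.0268 in MEF. Dlx2 and Irx3, patterning genes, were lower, at −3.01 and −3.04.

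The comparison also set an epithelium against a mesenchyme. Epithelial cells join through E-cadherin, claudins and desmosomes, and mesenchymal cells repress these genes through SNAIL, ZEB and TWIST factors. Of 27 tested epithelial genes, 25 were called higher in ES (16 by 2 or more), 1 lower and 1 was not called, with a median of 2.43. Cdh1 (chromosome 8, 106603351 to 106670246), the gene of E-cadherin, was at 80.5 and 81.4 RPKM in ES against 0.288 and 0.184 in MEF (log2 difference 6.05, SE 0.057, limma adjusted p = 7.2e-08). Epcam, another adhesion molecule gene of epithelia, was at 40.6 and 37.7 RPKM in ES against 0.190 and 0.372 in MEF (4.97). The claudin genes Cldn4 and Cldn6 were at 19.7 and 20.3 and 10.1 and 10.8 RPKM in ES libraries, and at 0.248 and 0.152 and 0.0375 and 0.0367 in MEF libraries. The protease inhibitor genes Spint1 and Spint2 differed by 4.98 and 4.76 and their target, the membrane protease gene St14, by 3.69. The junction plaque gene Jup differed less (0.95). Against the rest of the list, the keratin gene Krt19 was lower in ES, at 3.82 and 4.36 RPKM in ES against 24.7 and 26.5 in MEF (−2.39), and Esrp2, a splicing factor gene of epithelia, was not called (0.15; limma adjusted p = 0.18).

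Of 27 tested transcription factor genes of mesenchyme, 25 were called lower in ES (15 by 2 or more) and 2 higher, with a median of −2.41. Prrx1 (chromosome 1, 163245119 to 163313710), a homeodomain factor of limb and facial mesenchyme, was at 0.122 and 0.145 RPKM in ES against 163 and 165 in MEF (log2 difference −7.19, SE 0.039, limma adjusted p = 3.5e-08). Twist2 was at 0.294 and 0 RPKM in ES against 72.6 and 73.6 in MEF (−6.03) and its relative Twist1 at 4.85 and 5.01 RPKM in ES against 26.4 and 29.4 in MEF (−2.28). The repressors of Cdh1 were all lower in ES. Snai1 was at 1.05 and 0.972 RPKM in ES against 52.3 and 55.7 in MEF (−4.77), Snai2 at 0.324 and 0.332 RPKM in ES against 26.6 and 28.8 in MEF (−4.43), Zeb2 at 0.175 and 0.265 RPKM in ES against 13.4 and 13.095 in MEF (−3.54) and Zeb1 at 4.91 and 4.62 RPKM in ES against 13.15 and 12.5 in MEF (−1.26). Tissue patterning factors followed, with Tbx15 at −4.58, Osr1 at −4.35, Foxc2 at −3.63 and Runx2, the master gene of bone, at −3.07. Nfix, of the nuclear factor I family, differed by −4.51 and Nfic by −1.85. The 2 called higher were the endoderm factor genes Gata4 and Gata6, described above. Intermediate filaments changed in composition. Vim, which encodes the mesenchymal filament vimentin, was at 191 and 189.9 RPKM in ES against 3516 and 3556 in MEF (−4.21), while the simple keratin genes Krt8 and Krt18 were higher in ES, at 2.76 and 1.34.

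**Figure D2:**
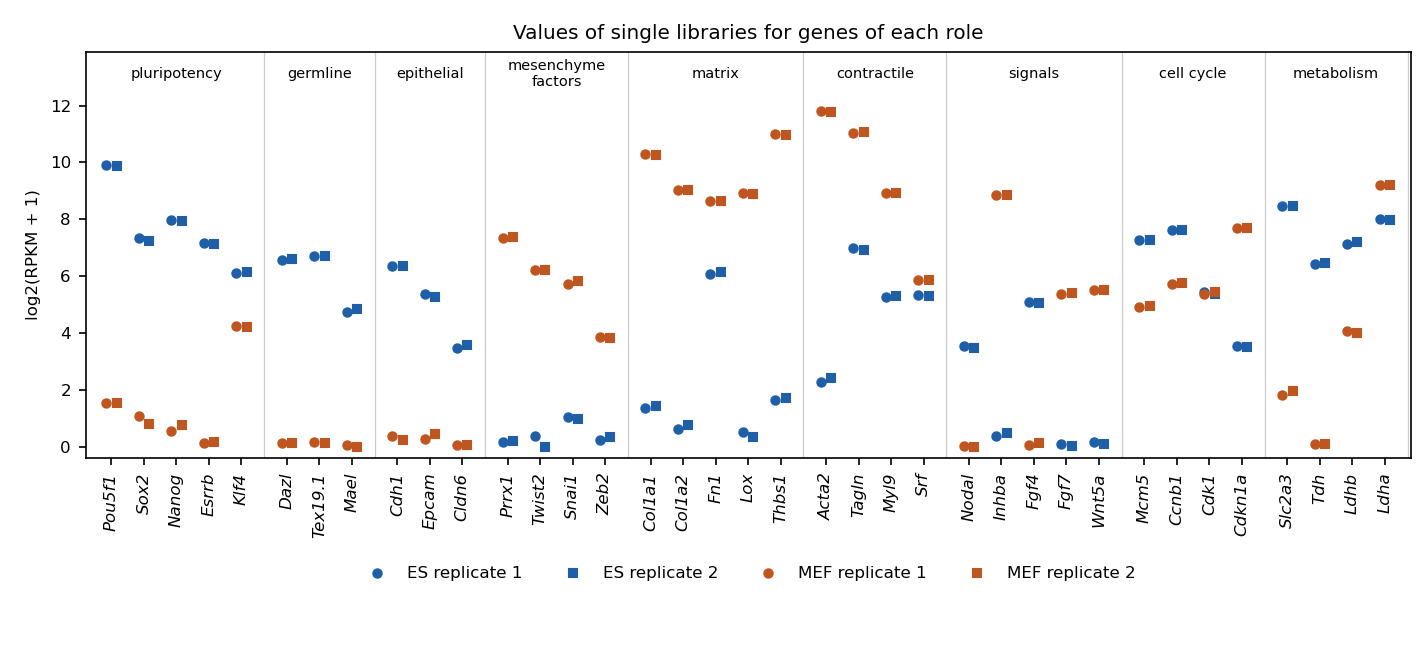
log2(RPKM + 1) of 37 genes in single libraries, grouped by role. Blue symbols are ES, orange symbols MEF, circles replicate 1 and squares replicate 2; duplicates nearly coincide, and only for Cdk1 do the groups overlap.

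Collagens, the main structural proteins of the matrix, gave the lowest median of the 51 pathway and family lists, −3.99. Of 44 chains listed, 24 were tested, 21 were called lower in ES (18 by 2 or more) and 3 higher. The 44 chains held 0.713 and 0.714% of all summed RPKM in the MEF libraries and 0.0216 and 0.0219% in the ES libraries. Col1a1 (chromosome 11, 94936224 to 94953042) and Col1a2, the chains of type I collagen, were at 1.59 and 1.66 RPKM in ES against 1243 and 1232 in MEF (log2 difference −8.88, SE 0.026, limma adjusted p = 1.5e-08) and at 0.533 and 0.675 RPKM in ES against 518 and 522 in MEF (−8.34). Both chains were thus abundant in MEF and under 2 RPKM in ES. Type V chains, which seed type I fibrils, were lower too, with Col5a2 at −7.58 and Col5a1 at −5.38, and so were the type VI chains Col6a1 (−7.16), Col6a2 (−6.77) and Col6a3 (−5.84). The basement membrane chains Col4a1 and Col4a2 kept a sizeable level in ES, at 28.0 and 27.9 RPKM in ES against 251 and 250.01 in MEF (−3.12) and at 12.65 and 13.7 RPKM in ES against 178 and 179 in MEF (−3.66). The 3 chains called higher in ES were Col9a2 (2.91), the basement membrane chain Col18a1 (51.4 and 51.2 RPKM in ES against 13.3 and 13.98 in MEF; 1.84) and Col13a1 (1.02).

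All 30 tested genes of collagen folding and cross-linking were called lower in ES, 16 of them by 2 or more, with a median of −2.41. Lox, the lysyl oxidase that cross-links collagen and elastin, was at 0.434 and 0.274 RPKM in ES against 480.4 and 478 in MEF (log2 difference −8.47, SE 0.062, limma adjusted p = 4.5e-08), and its relatives Loxl3, Loxl1, Loxl2 and Loxl4 differed by −6.14, −5.01, −4.20 and −2.78. Serpinh1, the collagen chaperone Hsp47, was at 64.9 and 63.4 RPKM in ES against 625 and 624 in MEF (−3.26). The catalytic prolyl hydroxylase genes P4ha1, P4ha2 and P4ha3 differed by −2.83, −2.89 and −4.56, whereas their shared subunit P4hb, which also folds other proteins, was at 243 and 244 RPKM in ES against 407 and 407 in MEF (−0.74). The cyclophilin gene Ppib was at 277 and 279.7 RPKM in ES against 297 and 301 in MEF (−0.10) and the lysyl hydroxylase gene Plod1 at 21.1 and 19.9 RPKM in ES against 23.1 and 22.7 in MEF (−0.15), calls that were lost in the fit of all 8 libraries (limma adjusted p = 0.11 and 0.16). The Plod1 call was also lost without ES replicate 2, MEF replicate 1 or MEF replicate 2.

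Among 60 tested matrix glycoprotein and proteoglycan genes, 54 were called lower in ES (44 by 2 or more) and 6 higher (4 by 2 or more), with a median of −3.01. Thbs1, the matricellular protein thrombospondin 1, was at 2.08 and 2.25 RPKM in ES against 2023 and 2013 in MEF (log2 difference −9.32, SE 0.032, limma adjusted p = 1.8e-08). Bgn, the small proteoglycan biglycan, was at 1.19 and 1.45 RPKM in ES against 1172 and 1147 in MEF (−8.97), and the fibulin gene Fbln2 at 0.516 and 0.601 RPKM in ES against 585 and 582 in MEF (−8.55). Fn1, fibronectin, was abundant in MEF and still clear in ES, at 66.8 and 70.0 RPKM in ES against 397 and 395 in MEF (−2.52). Sparc, a collagen-binding glycoprotein gene, also kept a level in ES, at 148 and 144 RPKM in ES against 1219 and 1200.3 in MEF (−3.04). The 6 genes higher in ES belonged mostly to basement membranes. They included the laminin genes Lama1 (14.4 and 14.2 RPKM in ES against 0.0749 and 0.107 in MEF; 3.81), Lama5 (1.17) and Lamc1 (0.91), the nidogen gene Nid2 (109 and 109.7 RPKM in ES against 16.02 and 16.1 in MEF; 2.69) and the IGF-binding protein gene Igfbp2 (109.5 and 113 RPKM in ES against 17.1 and 17.98 in MEF; 2.60). The related Nid1 went the other way, at 22.7 and 21.8 RPKM in ES against 154 and 155 in MEF (−2.74).

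Receptors for these matrices were split. Of 16 tested integrin genes, 11 were lower in ES (5 by 2 or more) and 5 higher (1 by 2 or more). Itgb1, the beta subunit shared by many receptors, was at 83.0 and 83.7 RPKM in ES against 605 and 602 in MEF (−2.84), and the fibronectin receptor chains Itga5 and Itgav differed by −2.50 and −3.08. The laminin receptor chains Itga3 and Itga6 were higher in ES, at 53.2 and 52.3 RPKM in ES against 8.77 and 8.99 in MEF (2.44) and 70.6 and 70.7 RPKM in ES against 22.98 and 23.5 in MEF (1.56). Fibroblast surface markers showed a median of −3.38 over 32 tested genes, 26 lower in ES (20 by 2 or more), 5 higher and 1 not called. Thy1 was at 2.02 and 2.08 RPKM in ES against 535 and 524 in MEF (−7.44), the hyaluronan receptor gene Cd44 at 0.242 and 0.324 RPKM in ES against 291 and 296 in MEF (−7.84) and the caveolin gene Cav1 at 0.216 and 0.151 RPKM in ES against 301 and 298 in MEF (−7.99). Markers that went the other way were Icam1, at 48.5 and 49.3 RPKM in ES against 2.37 and 2.04 in MEF (3.96), and Dpp4, at 9.53 and 8.72 RPKM in ES against 0.199 and 0.184 in MEF (3.09), and the 5-prime nucleotidase gene Nt5e was not called (limma adjusted p = 0.98).

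Proteases that cut the matrix and their inhibitors were mostly lower in ES, with 29 of 33 tested genes called lower (19 by 2 or more), 4 higher and a median of −2.21. The metalloproteinase inhibitor genes Timp1, Timp2 and Timp3 differed by −3.69, −5.65 and −5.57. Of the matrix metalloproteinases these inhibit, the membrane-bound Mmp14 and the gelatinase Mmp2 were at 15.3 and 14.5 RPKM in ES against 223 and 220.5 in MEF (−3.81) and 3.26 and 4.405 RPKM in ES against 42.1 and 43.1 in MEF (−3.18). Stromelysin genes of a cluster on chromosome 9 were on in MEF and near 0 in ES. Mmp3 (chromosome 9, 7445822 to 7455975) was at 0.176 and 0.148 RPKM in ES against 25.7 and 25.4 in MEF (−4.51), Mmp10 (chromosome 9, 7502352 to 7510240) at 4.38 and 4.48 RPKM in MEF and listed at 0 in ES, and the collagenase gene Mmp13 (chromosome 9, 7272514 to 7283331) at 0 and 0.0494 RPKM in ES against 3.91 and 3.58 in MEF (−2.21).

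The AP-1 site TGANTCA, the DNA word of FOS and JUN dimers, was looked for on both strands of the promoter windows. RefSeq windows were matched for 27 of the 44 protease and inhibitor genes, and 5 held the site (18.5%): Mmp3, Mmp10, Mmp12, Mmp13 and Plaur, against 2425 of 27025 genes (8.97%). In Mmp3, Mmp10 and Mmp13 it began 46, 63 and 35 bases before the start. The 200 bases before these 3 starts are shown, with the site in capitals, because the genes are neighbours that share the site and the MEF-restricted level (GRCm38.p6; Mmp3 chr9:7445622-7445821, plus strand; Mmp10 chr9:7502142-7502341, plus strand; Mmp13 chr9:7272314-7272513, plus strand).
Mmp3: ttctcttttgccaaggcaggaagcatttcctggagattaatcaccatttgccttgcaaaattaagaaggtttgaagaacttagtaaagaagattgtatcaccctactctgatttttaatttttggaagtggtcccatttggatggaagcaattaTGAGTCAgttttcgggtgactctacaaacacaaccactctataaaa
Mmp10: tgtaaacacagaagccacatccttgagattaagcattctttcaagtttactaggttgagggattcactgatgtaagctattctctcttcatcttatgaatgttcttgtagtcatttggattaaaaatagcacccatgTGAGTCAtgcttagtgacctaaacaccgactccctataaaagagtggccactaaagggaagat
Mmp13: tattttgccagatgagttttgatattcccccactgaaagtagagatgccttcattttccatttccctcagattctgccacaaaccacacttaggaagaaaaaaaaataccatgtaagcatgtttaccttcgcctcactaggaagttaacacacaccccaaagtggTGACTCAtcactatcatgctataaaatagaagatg
Mmp12, which holds the site too, stayed under the filter, at 0 and 0.0182 RPKM in ES against 0.261 and 0.240 in MEF. Of the AP-1 and immediate early genes, 15 had a RefSeq window and 0 of these held the site. AP-1 subunit genes themselves were mostly lower in ES. Of 20 tested AP-1 and immediate early genes, 17 were called lower (7 by 2 or more) and 3 higher, with a median of −1.64. Fosl1, the gene of Fra-1, was at 0.488 and 0.443 RPKM in ES against 52.4 and 51.0 in MEF (−5.17), Fosl2 at 0.882 and 0.927 RPKM in ES against 57.4 and 55.7 in MEF (−4.92) and Jun at 1.73 and 1.49 RPKM in ES against 55.9 and 57.2 in MEF (−4.46). Jund was higher in ES, at 37.1 and 36.3 RPKM in ES against 24.9 and 23.9 in MEF (0.57).

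Contractile and actin cytoskeleton genes held 3.68 and 3.66% of the summed RPKM in MEF and 0.496 and 0.495% in ES. Of 39 tested, 34 were called lower in ES (24 by 2 or more), 2 higher and 3 not called, with a median of −2.41. Acta2 (chromosome 19, 34241090 to 34255590), smooth muscle alpha actin, was among the 5 genes with the highest RPKM in MEF, at 3.86 and 4.35 RPKM in ES against 3562 and 3499 in MEF (log2 difference −9.44, SE 0.049, limma adjusted p = 3.1e-08). Tagln, transgelin, was at 125 and 120.2 RPKM in ES against 2116 and 2131 in MEF (−4.10), the tropomyosin gene Tpm2 at 2.89 and 3.42 RPKM in ES against 301 and 296 in MEF (−6.17) and the calponin gene Cnn1 at 2.10 and 2.35 RPKM in ES against 122 and 123 in MEF (−5.26). Focal adhesion genes were lower as well, with Zyx at −3.69, Parva at −3.92 and Vcl at −1.76. Srf, which encodes the factor that drives many of these genes, was at 39.4 and 38.7 RPKM in ES against 57.5 and 56.7 in MEF (−0.54), and its cofactor gene Mkl1 at 9.56 and 9.80 RPKM in ES against 30.5 and 29.7 in MEF (−1.54). Csrp2, a LIM protein gene, was the member highest in ES relative to MEF, at 175 and 174 RPKM in ES against 26.3 and 27.2 in MEF (2.66). Des, Cnn3 and Mkl2 were not called, with limma adjusted p = 0.39, 0.34 and 0.18. Cnn3 was called lower in ES with centred libraries (−0.13, limma adjusted p = 0.0015) and after quantile normalization (−0.068, limma adjusted p = 0.014).

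The CArG box, the DNA element of SRF, was searched in the same windows. Of 41 contractile genes, 35 had a RefSeq window and 5 of them held a CArG box (14.3%), against 488 of 27025 genes (1.81%). They were Cnn2, Myl9, Myl6, Vcl and Srf itself. Cnn2, a calponin gene, was at 96.4 and 99.1 RPKM in ES against 673 and 669.5 in MEF (−2.77), and Myl9, the regulatory myosin light chain gene, at 37.5 and 38.4 RPKM in ES against 483 and 479.8 in MEF (−3.63). The 200 bases before their starts are shown because they carry the box close to the start of genes with a large difference (GRCm38.p6; Cnn2 chr10:79988400-79988599, plus strand, box 56 bases before the start; Myl9 chr2:156775264-156775463, plus strand, box 161 bases before). Capitals mark the box.
Cnn2: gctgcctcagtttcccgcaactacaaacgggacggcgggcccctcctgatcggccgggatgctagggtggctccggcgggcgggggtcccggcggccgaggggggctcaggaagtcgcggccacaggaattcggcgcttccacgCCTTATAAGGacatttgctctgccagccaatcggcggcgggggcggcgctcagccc
Myl9: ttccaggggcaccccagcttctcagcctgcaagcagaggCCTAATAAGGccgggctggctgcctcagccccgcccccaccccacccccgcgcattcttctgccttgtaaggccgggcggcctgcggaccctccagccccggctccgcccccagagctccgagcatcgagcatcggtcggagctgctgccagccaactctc
Tpm2, Acta2 and Cnn1, with larger differences, are not among the genes whose window held the element. A window without a match says only that these letters are not in it.

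YAP and TEAD factors read cell spreading and tension, and their textbook targets were lower in ES. Of 23 tested genes of this list 19 were called lower (10 by 2 or more), 3 higher and 1 not called. The targets Ctgf and Cyr61 were at 19.7 and 20.1 RPKM in ES against 1205 and 1183 in MEF (−5.83) and 13.4 and 12.63 RPKM in ES against 785 and 797 in MEF (−5.82), and Ankrd1 at 0.540 and 0.530 RPKM in ES against 139 and 135 in MEF (−6.49). The coactivator genes themselves differed far less. Yap1 was at 57.5 and 59.0 RPKM in ES against 65.9 and 68.1 in MEF (−0.20) and Wwtr1, the gene of TAZ, at 11.7 and 11.8 RPKM in ES against 30.7 and 30.2 in MEF (−1.31). Tead4 and Tead2 were higher in ES (1.85 and 0.65) and Tead1 and Tead3 lower (−1.45 and −2.67).

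Hox genes give cells a position along the body axis. Of 39 listed, 30 were at 1 RPKM or more in both MEF libraries and 2 in both ES libraries. Of the 30 tested, 29 were called lower in ES (15 by 2 or more), with a median of −2.03, and 1 was not called. Summed over the cluster, the 9 genes of Hox cluster C were at 58.4 and 60.2 RPKM in MEF and 0.717 and 0.903 in ES, the 10 genes of cluster B at 46.4 and 47.4 against 3.88 and 3.56, the 11 of cluster A at 25.2 and 26.6 against 5.05 and 5.53, and the 9 of cluster D at 27.0 and 26.9 against 1.42 and 1.75. Hoxc6 (chromosome 15, 102998257 to 103011881) had the largest difference, at 0 and 0.0421 RPKM in ES against 17.4 and 17.4 in MEF (log2 difference −4.17, SE 0.057, limma adjusted p = 1.8e-07). Hoxb9, at 1.03 and 1.27 RPKM in ES against 17.4 and 17.5 in MEF, and Hoxd13, at 0.711 and 1.04 RPKM in ES against 11.999 and 11.9 in MEF, were also among the highest in MEF. The anterior genes Hoxb1 and Hoxd1 were under 0.2 RPKM in all 4 libraries. In cluster A the highest MEF levels belonged to posterior members, with Hoxa10 at 6.66 and 7.196 RPKM and Hoxa11 at 5.21 and 6.16.

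Signalling pathways held genes of both directions, often different ligands and receptors of 1 family. In the TGF-beta and activin pathway 13 of 31 tested genes were higher in ES (6 by 2 or more) and 18 lower (13 by 2 or more). Of the 6, 5 belong to Nodal signalling, the form used by the early embryo. They were Tdgf1 and Gdf3 (55.5 and 53.9 RPKM in ES against 0.200 and 0.0956 in MEF; 5.60), Nodal (3.49) and its inhibitor Lefty2 (2.45), together with the receptor gene Acvr2b (10.7 and 10.4 RPKM in ES against 0.331 and 0.582 in MEF; 2.99). The sixth was Ltbp4, which encodes a TGF-beta binding protein of the matrix (3.399), although its relatives Ltbp1, Ltbp2 and Ltbp3 were lower in ES (−4.28, −5.47 and −4.15). Inhba, the activin A subunit gene, was at 0.292 and 0.395 RPKM in ES against 467 and 459 in MEF (−8.43), its antagonist gene Fst at 0.810 and 0.965 RPKM in ES against 183 and 183 in MEF (−6.61), Tgfb3 at 0.111 and 0.0584 RPKM in ES against 146 and 143 in MEF (−7.07) and Tgfb1 at 6.53 and 7.02 RPKM in ES against 55.8 and 53.6 in MEF (−2.84), all lower in ES. Of the SMAD transducers, Smad2 and Smad4 were higher in ES (0.87 and 0.68) and Smad3 lower (2.51 and 2.32 RPKM in ES against 10.8 and 10.9 in MEF; −1.79). In the BMP pathway 5 of 23 tested genes were higher and 16 lower (7 by 2 or more). Bmp4, which supports ES self-renewal, was at 33.0 and 35.5 RPKM in ES against 10.2 and 10.2 in MEF (1.65), and the antagonist gene Grem1 at 0.272 and 0.0817 RPKM in ES against 70.9 and 67.0 in MEF (−5.90). The 4 ID genes, direct targets of BMP, were all lower in ES, Id1 least (103 and 104 RPKM in ES against 157 and 161 in MEF; −0.61) and Id3 most (8.62 and 7.04 RPKM in ES against 289 and 286 in MEF; −5.04). The Id1 call was lost in the fit of all 8 libraries (limma adjusted p = 0.081).

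Of 25 tested FGF pathway genes, 13 were higher in ES (5 by 2 or more) and 12 lower (5 by 2 or more). Fgf4, the autocrine ligand of ES cells, was at 32.9 and 32.4 RPKM in ES against 0.0366 and 0.0896 in MEF (4.98), and the ERK-responsive factor genes Etv5 and Etv4 at 98.9 and 100.4 RPKM in ES against 10.1 and 9.497 in MEF (3.22) and 92.2 and 91.4 RPKM in ES against 21.1 and 20.5 in MEF (2.09). Fgf7, a ligand that mesenchyme sends to epithelium, was at 0.0707 and 0.0248 RPKM in ES against 40.7 and 41.8 in MEF (−5.33), Fgf2 at 0.0957 and 0.503 RPKM in ES against 23.9 and 20.9 in MEF (−4.18) and Fgf10 at 0.178 and 0.286 RPKM in ES against 9.27 and 8.63 in MEF (−3.01). The receptors split, with Fgfr1 and Fgfr2 lower in ES (−1.73 and −2.09) and Fgfr3 and Fgfr4 higher (1.02 and 1.34). Of 38 tested Wnt pathway genes, 16 were higher in ES (6 by 2 or more), 20 lower (8 by 2 or more) and 2 not called. The TCF factors Tcf7 and Tcf7l1 were higher in ES, at 28.6 and 28.9 RPKM in ES against 1.42 and 1.37 in MEF (3.64) and 54.7 and 56.3 RPKM in ES against 12.08 and 12.3 in MEF (2.10). Wnt5a, a ligand that acts without beta-catenin, was at 0.115 and 0.0754 RPKM in ES against 44.9 and 44.1 in MEF (−5.38), and the antagonist gene Dkk2 at 0 and 0.0179 RPKM in ES against 16.6 and 16.3 in MEF (−4.11). Wnt7b and Wnt6 went the other way, at 2.73 and 2.15.

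LIF, which holds mouse ES cells in the undifferentiated state, acts through the receptor pair LIFR and gp130 and the JAK-STAT3 chain. Of 22 tested genes of this family 7 were higher in ES (2 by 2 or more) and 15 lower (5 by 2 or more). Lifr was at 6.99 and 7.03 RPKM in ES against 1.22 and 1.17 in MEF (1.87) and the shared subunit gene Il6st, of gp130, at 19.8 and 20.8 RPKM in ES against 27.4 and 27.1 in MEF (−0.41). Socs3, a STAT3 target and inhibitor, was at 57.9 and 55.2 RPKM in ES against 6.90 and 6.91 in MEF (2.86), and the kinase gene Pim3 at 114 and 113 RPKM in ES against 16.3 and 18.2 in MEF (2.65). All 6 tested ligand genes were lower in ES. Il11 was at 0.399 and 0.396 RPKM in ES against 60.4 and 62.1 in MEF (−5.48), Clcf1 at 0.643 and 0.761 RPKM in ES against 27.9 and 30.2 in MEF (−4.14), Il6 at 0.0595 and 0 RPKM in ES against 4.63 and 3.96 in MEF (−2.36) and Lif at 1.37 and 1.31 RPKM in ES against 3.06 and 3.16 in MEF (−0.81). The oncostatin M receptor gene Osmr was at 0.0258 and 0.0543 RPKM in ES against 17.6 and 16.1 in MEF (−4.10). Growth factors of mesenchyme followed the same side, with 23 of 29 tested genes lower in ES (18 by 2 or more), 5 higher and 1 not called. Csf1, the macrophage growth factor gene, was at 0.868 and 1.24 RPKM in ES against 383 and 380.2 in MEF (−7.55), Pdgfrb at 0.461 and 0.508 RPKM in ES against 33.5 and 34.2 in MEF (−4.55) and Igf2 at 6.27 and 5.84 RPKM in ES against 147 and 148 in MEF (−4.397). Mdk, midkine, at 243 and 231 RPKM in ES against 12.4 and 12.9 in MEF (4.13), and the receptor genes Kit and Erbb3 (3.98 and 3.53) were higher in ES.

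Chemokines and inflammatory genes were tested for 26 of 41 listed, with 17 lower in ES (10 by 2 or more), 6 higher (1 by 2 or more) and 3 not called. Ptgs2, the inducible cyclooxygenase COX-2, was at 0.603 and 0.523 RPKM in ES against 364 and 359 in MEF (−7.86). The chemokine genes Ccl7 and Ccl2 were at 0.0824 and 0.520 RPKM in ES against 67.2 and 64.1 in MEF and 0.327 and 1.20 RPKM in ES against 74.4 and 72.1 in MEF. Tlr2, an innate receptor gene, was the member past 2 in the other direction, at 6.67 and 6.15 RPKM in ES against 0.759 and 0.666 in MEF (2.11). MHC class I molecules present peptides to T cells. Their shared light chain gene B2m was at 12.7 and 11.3 RPKM in ES against 281 and 278 in MEF (log2 difference −4.43, SE 0.053, limma adjusted p = 1.3e-07), and the peptide transporter genes Tap1 and Tap2 were lower in ES too (−1.16 and −2.52). Of 20 tested genes of this list 15 were lower (5 by 2 or more), 2 higher and 3 not called. The class I heavy chain genes H2-K1 and H2-D1 were at 12.3 and 11.3 RPKM in ES against 28.99 and 26.7 in MEF and 8.15 and 7.94 RPKM in ES against 17.3 and 16.1 in MEF. The heavy chain genes are near-identical copies that vary between mouse strains, so their values are uncertain, and how reads of 129S2/SvPas or BALB/c alleles align to the reference was not tested. Interferon response genes went both ways, with a median of −0.33. The 22 tested genes included 8 higher in ES (2 by 2 or more), 13 lower (2 by 2 or more) and 1 not called. Ifitm1, a membrane protein gene also known from germ cells, was at 27.3 and 28.3 RPKM in ES against 1.39 and 1.02 in MEF (3.71), and Isg15, the ubiquitin-like modifier gene, at 0.0875 and 0.0919 RPKM in ES against 9.998 and 10.2 in MEF (−3.35).

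**Figure D3:**
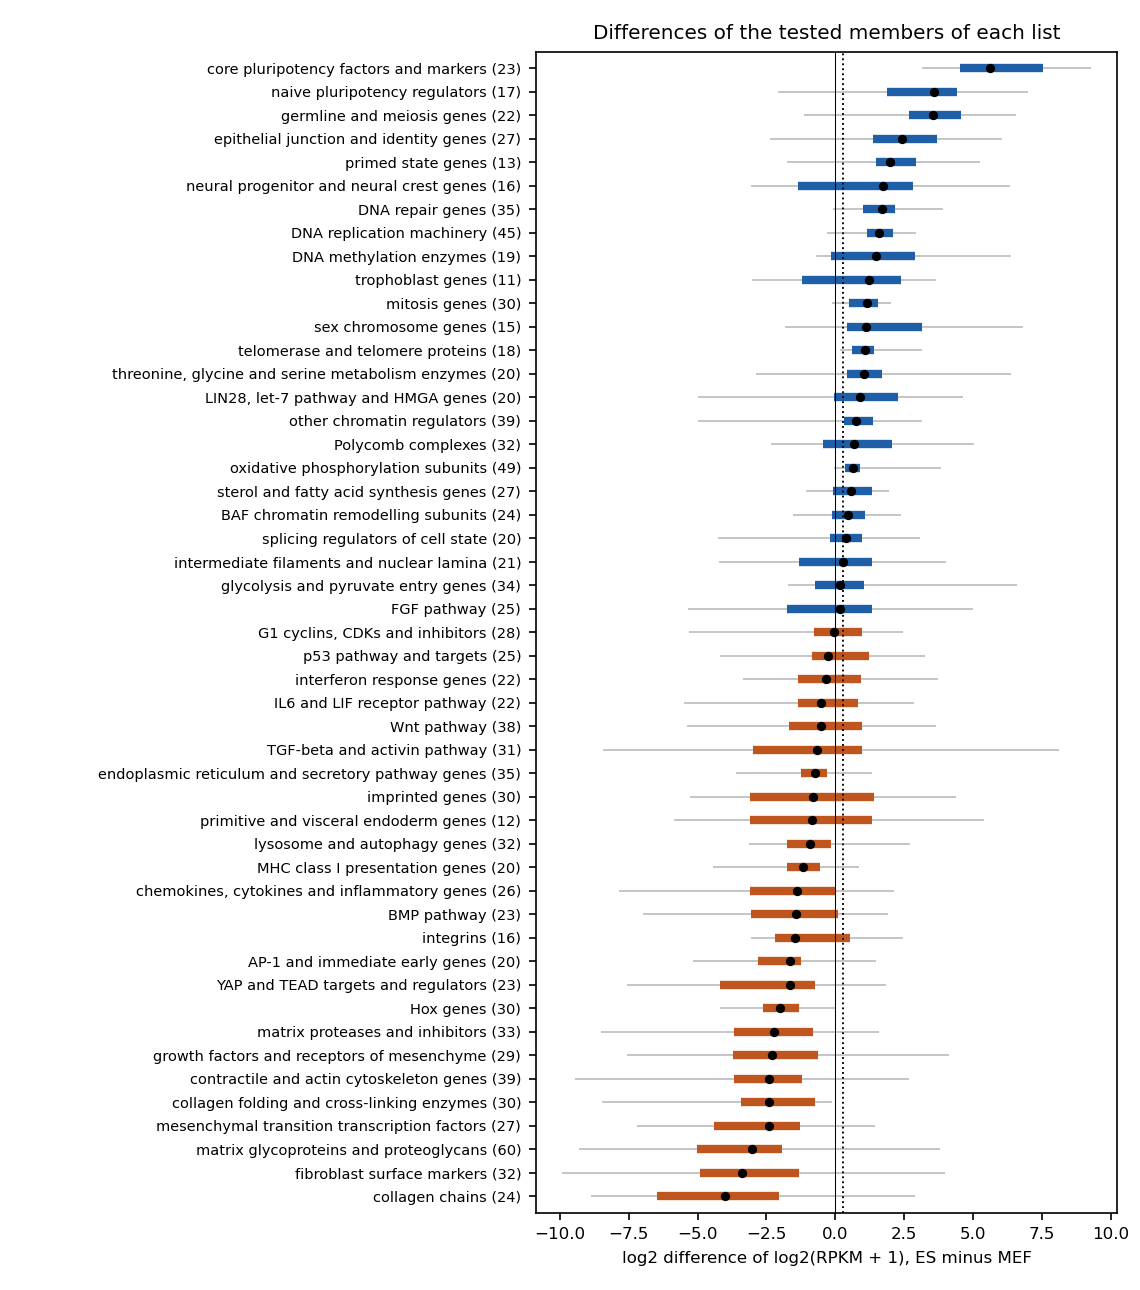
Log2 differences, ES minus MEF, in each list with at least 10 tested members (number in brackets). Thin grey lines run from the lowest to the highest tested member, thick bars span the first to the third quartile (blue for a median above 0, orange below), dots are medians, and the dotted line is the median of all 12442 tested genes, 0.27. Core pluripotency genes lie wholly above 3 and collagen folding genes wholly below 0, while most signalling lists spread to both sides.

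Genes of DNA replication were higher in ES as a group. Of 45 tested, 42 were called higher (13 by 2 or more), 2 lower and 1 not called, with a median of 1.60. Mcm5 and Mcm7, subunits of the replicative helicase, were at 153 and 154 RPKM in ES against 29.2 and 30.0 in MEF (2.34) and 217 and 218 RPKM in ES against 42.0 and 42.1 in MEF (2.34), and the sliding clamp gene Pcna at 463 and 461 RPKM in ES against 118 and 122 in MEF (log2 difference 1.93, SE 0.024, limma adjusted p = 1.4e-07). Mcm10 had the largest difference, 2.93. The licensing inhibitor gene Gmnn, geminin, was higher by 2.77 and its target Cdt1 by 1.75. The 2 lower genes were both subunits of ribonucleotide reductase, Rrm1 (−0.14; lost in the fit of all 8 libraries, limma adjusted p = 0.073) and Rrm2 (−0.32), and Orc4 was not called (limma adjusted p = 0.052). Orc4 was called lower in ES with a pseudocount of 5, a mean of at least 5 RPKM, centred libraries, quantile normalization and the replicate block. Mitosis genes had a smaller median, 1.17, with 27 of 30 tested genes higher (1 by 2 or more) and 3 not called. The cyclin B genes Ccnb1 and Ccnb2 were at 197 and 196 RPKM in ES against 51.5 and 53.5 in MEF (1.89) and 110.0 and 107 RPKM in ES against 28.5 and 28.2 in MEF (1.90). Cdk1, the kinase they activate, was at 42.0 and 40.7 RPKM in ES against 40.1 and 42.4 in MEF and was not called (limma adjusted p = 0.91), though with centred libraries it was slightly lower in ES (−0.11). The proliferation marker Mki67 was at 18.9 and 19.9 RPKM in ES against 16.5 and 16.01 in MEF (0.24), a call lost after quantile normalization (0.11) and in the fit of all 8 libraries. Both cultures thus expressed proliferation genes. A CCAAT box, the letters CCAAT bound by NF-Y, stood in 19 of the 25 mitosis gene windows matched in RefSeq (76.0%), against 11096 of 27025 windows (41.1%).

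Control of G1 showed opposite changes within families. Of 28 tested genes, 13 were higher in ES (2 by 2 or more), 12 lower (6 by 2 or more) and 3 not called, with a median of −0.045. Over all genes tested 53.9% were called higher and 36.9% lower. Among the higher were Ccne1, cyclin E1, at 171 and 167 RPKM in ES against 30.3 and 29.8 in MEF (2.45), its kinase gene Cdk2 (1.22) and Cdc25a (1.06), the phosphatase that activates it. D-type cyclins, which carry growth factor signals, differed in both directions. Ccnd3 was at 245 and 245 RPKM in ES against 66.0 and 66.2 in MEF (1.87), Ccnd1 at 17.3 and 16.6 RPKM in ES against 114 and 112 in MEF (−2.67) and Ccnd2 at 1.74 and 1.47 RPKM in ES against 105 and 101 in MEF (−5.32). Inhibitors of cyclin-dependent kinases were mostly lower in ES. Cdkn1a (chromosome 17, 29090976 to 29100727), p21, was at 10.6 and 10.46 RPKM in ES against 208 and 208 in MEF (log2 difference −4.18, SE 0.025, limma adjusted p = 3.6e-08), Cdkn2b, p15, at 1.75 and 0.918 RPKM in ES against 18.2 and 19.3 in MEF (−3.11), and Cdkn1c, p57, at 1.04 and 0.789 RPKM in ES against 7.01 and 7.08 in MEF (−2.07). Cdkn1b, p27, differed by −0.35, a call lost in the fit of all 8 libraries (limma adjusted p = 0.066). Cdkn2d, p19, differed by 0.19, a call lost under median centring and quantile normalization (0.08 each), in the fit of all 8 libraries, and without ES replicate 2, MEF replicate 1 or MEF replicate 2. Trp53 itself was at 214 and 213 RPKM in ES against 78.1 and 83.1 in MEF (1.39). Genes of the p53 list went both ways. Of 25 tested, 10 were higher in ES (2 by 2 or more), 13 lower (4 by 2 or more) and 2 not called, with a median of −0.28. Gadd45a was at 49.8 and 48.8 RPKM in ES against 4.17 and 4.27 in MEF (3.27), whereas Ccng1 and Plk2 were lower in ES (−2.08 and −3.65).

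Of 35 tested DNA repair genes, 31 were called higher in ES (12 by 2 or more), 0 lower and 4 not called, with a median of 1.71. Msh6 (chromosome 17, 87975062 to 87990892), a mismatch repair gene, was at 164 and 163 RPKM in ES against 10.01 and 10.1 in MEF (log2 difference 3.90, SE 0.025, limma adjusted p = 3.7e-08). The uracil glycosylase gene Ung was at 69.2 and 70.1 RPKM in ES against 5.67 and 4.71 in MEF (3.52) and Parp1, which senses strand breaks, at 184 and 182 RPKM in ES against 26.5 and 26.9 in MEF (2.73). Homologous recombination genes were higher too, with Brca1 at 2.08 and Brca2 at 2.19. Of the end-joining genes, Xrcc5 and Xrcc6 differed by 2.72 and 1.71, and Xrcc4 was not called (limma adjusted p = 0.81). All 18 tested telomere genes were higher in ES, 2 of them by 2 or more. The shelterin gene Terf1 was at 73.8 and 72.3 RPKM in ES against 10.8 and 9.004 in MEF (2.77), and Tert, the telomerase catalytic subunit, at 1.76 and 2.08 RPKM in ES against 1.55 and 1.42 in MEF (0.23). The Tert call was lost with the libraries centred on the same median (limma adjusted p = 0.21) and after quantile normalization, with a pseudocount of 0.1, with no filter, in the fit of all 8 libraries, with the replicate block, and without ES replicate 2, MEF replicate 1 or MEF replicate 2.

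Of 19 tested DNA methylation genes, 13 were higher in ES (8 by 2 or more), 5 lower and 1 not called. Dnmt3l (chromosome 10, 78041947 to 78063622), the cofactor of the de novo enzymes, was at 117 and 117 RPKM in ES against 0.464 and 0.363 in MEF (log2 difference 6.38, SE 0.05, limma adjusted p = 5.5e-08), and the enzyme genes Dnmt3b and Dnmt3a were at 24.0 and 22.8 RPKM in ES against 0.626 and 0.650 in MEF (3.89) and 12.3 and 12.12 RPKM in ES against 2.55 and 2.67 in MEF (1.87). The maintenance enzyme gene Dnmt1 differed by 0.93 and its guide Uhrf1 by 2.39. Of the TET oxidases, Tet1 and Tet2 were higher in ES, at 14.3 and 14.2 RPKM in ES against 0.160 and 0.171 in MEF (3.71) and 10.7 and 11.4 RPKM in ES against 0.759 and 0.631 in MEF (2.83), and Tet3 lower (−0.71). The 5 lower genes included Tet3 and the readers of methylated DNA Mbd1, Mbd2 and Mbd3 (−0.54, −0.60 and −0.29).

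Polycomb complexes, which silence developmental genes, differed in their subunits. Of 32 tested genes, 19 were higher in ES (10 by 2 or more), 11 lower (1 by 2 or more) and 2 not called. The core PRC2 genes Ezh2, Eed and Suz12 differed by 1.58, 2.04 and 2.003. Accessory PRC2 genes differed more, with Jarid2 at 90.1 and 90.7 RPKM in ES against 2.42 and 2.66 in MEF (4.69) and Mtf2 at 106 and 109 RPKM in ES against 5.65 and 5.28 in MEF (4.07). Epop, an elongin-binding PRC2 partner gene listed under its clone name E130012A19Rik, was at 113 and 113 RPKM in ES against 2.49 and 2.41 in MEF (5.05). In PRC1, Cbx7 was at 51.0 and 51.9 RPKM in ES against 0.979 and 1.03 in MEF (4.71), and Phc1 was at 79.2 and 81.7 RPKM in ES against 5.71 and 6.41 in MEF (3.53) while Phc2 was at 10.7 and 9.72 RPKM in ES against 55.1 and 55.2 in MEF (−2.33). The BAF remodeller, of which ES cells are known to use a form of their own, had 15 of 24 tested genes higher in ES (1 by 2 or more), 6 lower and 3 not called. Its median was 0.46, against 0.27 over all genes tested, of which 53.9% were called higher and 7.42% by 2 or more. Smarcd1 was at 59.6 and 59.5 RPKM in ES against 10.8 and 10.55 in MEF (2.37), Arid1a at 47.1 and 47.8 RPKM in ES against 12.3 and 12.8 in MEF (1.84), the ATPase gene Smarca4 at 42.6 and 42.2 RPKM in ES against 35.2 and 36.9 in MEF (0.23; 0.0019 and not called after quantile normalization) and the other ATPase gene, Smarca2, at 0.363 and 0.256 RPKM in ES against 2.63 and 2.92 in MEF (−1.53). Of 39 other chromatin genes 32 were higher in ES (5 by 2 or more), 6 lower (3 by 2 or more) and 1 not called. The demethylase genes Kdm5b and Kdm3a differed by 2.53 and 2.50, and the deacetylase gene Hdac7 was at 0.982 and 0.913 RPKM in ES against 31.8 and 31.6 in MEF (−4.07).

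LIN28 proteins block maturation of the let-7 microRNAs, whose targets include Hmga2. Lin28a was at 26.5 and 27.1 RPKM in ES against 0.143 and 0.125 in MEF (4.61), Lin28b at 4.37 and 4.07 RPKM in ES against 0.0306 and 0.0199 in MEF (2.35) and Trim71, another let-7 target, at 23.1 and 24.8 RPKM in ES against 0.318 and 0.249 in MEF (4.28). Hmga2 went the other way, at 11.4 and 11.9 RPKM in ES against 405 and 401 in MEF (log2 difference −5.001, SE 0.028, limma adjusted p = 3.6e-08), and Hmga1 was at 554 and 553 RPKM in ES against 609 and 605 in MEF (−0.13), a call lost after quantile normalization (−0.010) and in the fit of all 8 libraries. MYC genes were split, with Mycn at 29.7 and 29.6 RPKM in ES against 0.922 and 1.20 in MEF (3.90) and Myc at 20.9 and 20.4 RPKM in ES against 62.4 and 62.4 in MEF (−1.55). Among 20 tested splicing regulators, 12 were higher in ES (1 by 2 or more), 7 lower (3 by 2 or more) and 1 not called. Their median was 0.38, against 0.27 over all genes tested, of which 53.9% were called higher. The muscleblind genes Mbnl1 and Mbnl2, which repress ES-type splicing, were at 2.15 and 2.16 RPKM in ES against 58.9 and 60.5 in MEF (−4.26) and 11.8 and 11.4 RPKM in ES against 62.5 and 63.3 in MEF (−2.34), and the epithelial gene Esrp1 stayed under the filter at 0.486 and 0.374 RPKM in ES against 0 and 0.0280 in MEF.

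Imprinted genes, expressed from 1 parental allele, had 12 of 30 tested higher in ES (6 by 2 or more) and 17 lower (12 by 2 or more), with 1 not called. The noncoding RNAs Meg3 and Rian of the Dlk1 domain were at 0.332 and 0.308 RPKM in ES against 24.0 and 24.0 in MEF (−4.24) and 2.29 and 2.24 RPKM in ES against 118 and 117 in MEF (−5.19), and Dlk1 at 0.307 and 0.294 RPKM in ES against 19.3 and 19.4 in MEF (−3.97). H19 and Igf2, neighbours of opposite imprint, were both lower in ES, at 21.02 and 21.99 RPKM in ES against 196 and 195 in MEF (−3.13) and −4.397. Phlda2, Peg10 and Mest were higher, at 22.4 and 22.01 RPKM in ES against 0 and 0.233 in MEF (4.38), 122 and 122 RPKM in ES against 8.91 and 8.70 in MEF (3.65) and 45.5 and 47.2 RPKM in ES against 8.36 and 8.43 in MEF (2.33). Snrpn and Snurf share a transcript, and their split values (2.85 and −2.37) are uncertain. In the BALB/c iPS clones Meg3 was at 4.72, 1.58, 2.52 and 3.65 RPKM and H19 at 39.4, 38.0, 33.4 and 32.2, listed as 3F + IL6 replicates 1 and 2 and 4F replicates 1 and 2.

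Metabolic genes differed less in median and more in a few members. Glycolysis had 17 of 34 tested genes higher in ES (5 by 2 or more), 15 lower (0 by 2 or more) and 2 not called. The neuron-type glucose transporter gene Slc2a3 (chromosome 6, 122727809 to 122801640) was at 356 and 355 RPKM in ES against 2.53 and 2.92 in MEF (log2 difference 6.58, SE 0.055, limma adjusted p = 5.7e-08), the pyruvate dehydrogenase kinase gene Pdk1 at 42.3 and 40.8 RPKM in ES against 0.547 and 0.690 in MEF (4.72), Ldhb at 139 and 144 RPKM in ES against 15.7 and 15.03 in MEF (3.12) and Hk2 at 77.1 and 76.7 RPKM in ES against 8.34 and 8.30 in MEF (3.06). Their relatives Ldha and Hk1 were lower in ES (−1.21 and −1.70), as were the pathway enzymes Tpi1 (−1.25) and Pgk1 (−0.83). Mouse ES cells are known to depend on threonine breakdown. Tdh (chromosome 14, 63492347 to 63509092), threonine dehydrogenase, was at 86.0 and 86.4 RPKM in ES against 0.0596 and 0.0583 in MEF (log2 difference 6.36, SE 0.043, limma adjusted p = 3.9e-08). The next steps of glycine cleavage, Gldc and Amt, were at 46.7 and 46.1 RPKM in ES against 0.177 and 0.230 in MEF (5.30) and 43.3 and 41.3 RPKM in ES against 0.942 and 0.502 in MEF (4.66), and 16 of 20 tested genes of this list were higher in ES (5 by 2 or more) and 4 lower. Phgdh, which starts serine synthesis, was lower (−0.79).

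Oxidative phosphorylation genes differed by little and in 1 direction. Of 49 tested nuclear-encoded subunits, 46 were higher in ES (2 by 2 or more), 0 lower and 3 not called, with a median of 0.63. The 2 past the second rule were tissue-restricted isoforms of cytochrome oxidase, Cox7a1 (35.8 and 30.0 RPKM in ES against 1.55 and 1.18 in MEF; 3.84) and Cox6b2 (62.6 and 59.2 RPKM in ES against 4.14 and 4.05 in MEF; 3.60). Sterol and fatty acid synthesis had 19 of 27 higher (0 by 2 or more), 7 lower and 1 not called, with the mevalonate enzymes Mvd (1.93) and Hmgcs1 (1.70) among the largest. Lysosome and autophagy genes were mostly lower in ES, 24 of 32 (5 by 2 or more), against 6 higher and 2 not called. Lamp2 was at 9.16 and 10.1 RPKM in ES against 93.9 and 91.97 in MEF (−3.14) and the tetraspanin gene Cd63 at 154 and 159 RPKM in ES against 674 and 692 in MEF (−2.12), whereas Tfeb, the factor that drives lysosome genes, was higher in ES, at 18.4 and 17.9 RPKM in ES against 2.01 and 1.80 in MEF (2.72). Of 35 tested genes of the endoplasmic reticulum and secretory route, 28 were lower (5 by 2 or more), 5 higher and 2 not called. Creb3l1, which drives collagen secretion, was at 2.84 and 3.27 RPKM in ES against 38.6 and 39.9 in MEF (−3.31), and the general chaperone gene Hspa5 at 419 and 416 RPKM in ES against 516 and 516 in MEF (−0.31).

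In several small families the make-up of the summed level differed between ES and MEF. The families were chosen after their values were seen and are described with no test, as each member's percent of the family's summed RPKM. Ccnd3 held 92.8% and 93.1% of the D-type cyclin sum in ES and 23.2% and 23.7% in MEF. Cdh1 held 98.4% and 97.98% of the sum of Cdh1 and Cdh2 in ES and 0.430% and 0.271% in MEF. Lmna held 13.2% and 12.4% of the lamin sum in ES and 87.4% and 87.6% in MEF, and the B-type lamin genes Lmnb1 and Lmnb2 the rest. Acta2 held 0.128% and 0.142% of the actin sum in ES and 26.4% and 26.2% in MEF. Phc1 held 86.8% and 88.1% of the Polycomb PHC sum in ES against 8.61% and 9.61% in MEF. Hk2 held 91.8% and 91.5% of the sum of Hk1 and Hk2 in ES and 25.4% and 24.5% in MEF, and Slc2a3 56.4% and 56.7% against 3.97% and 4.68% of the sum with Slc2a1. Lama1 held 60.4% and 60.8% of the laminin alpha sum in ES and 0.352% and 0.514% in MEF. Tgfb3 held 1.63% and 0.795% of the TGF-beta ligand sum in ES and 70.0% and 70.4% in MEF. For each member named here the duplicates lay within 2 percentage points of each other.

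**Figure D4:**
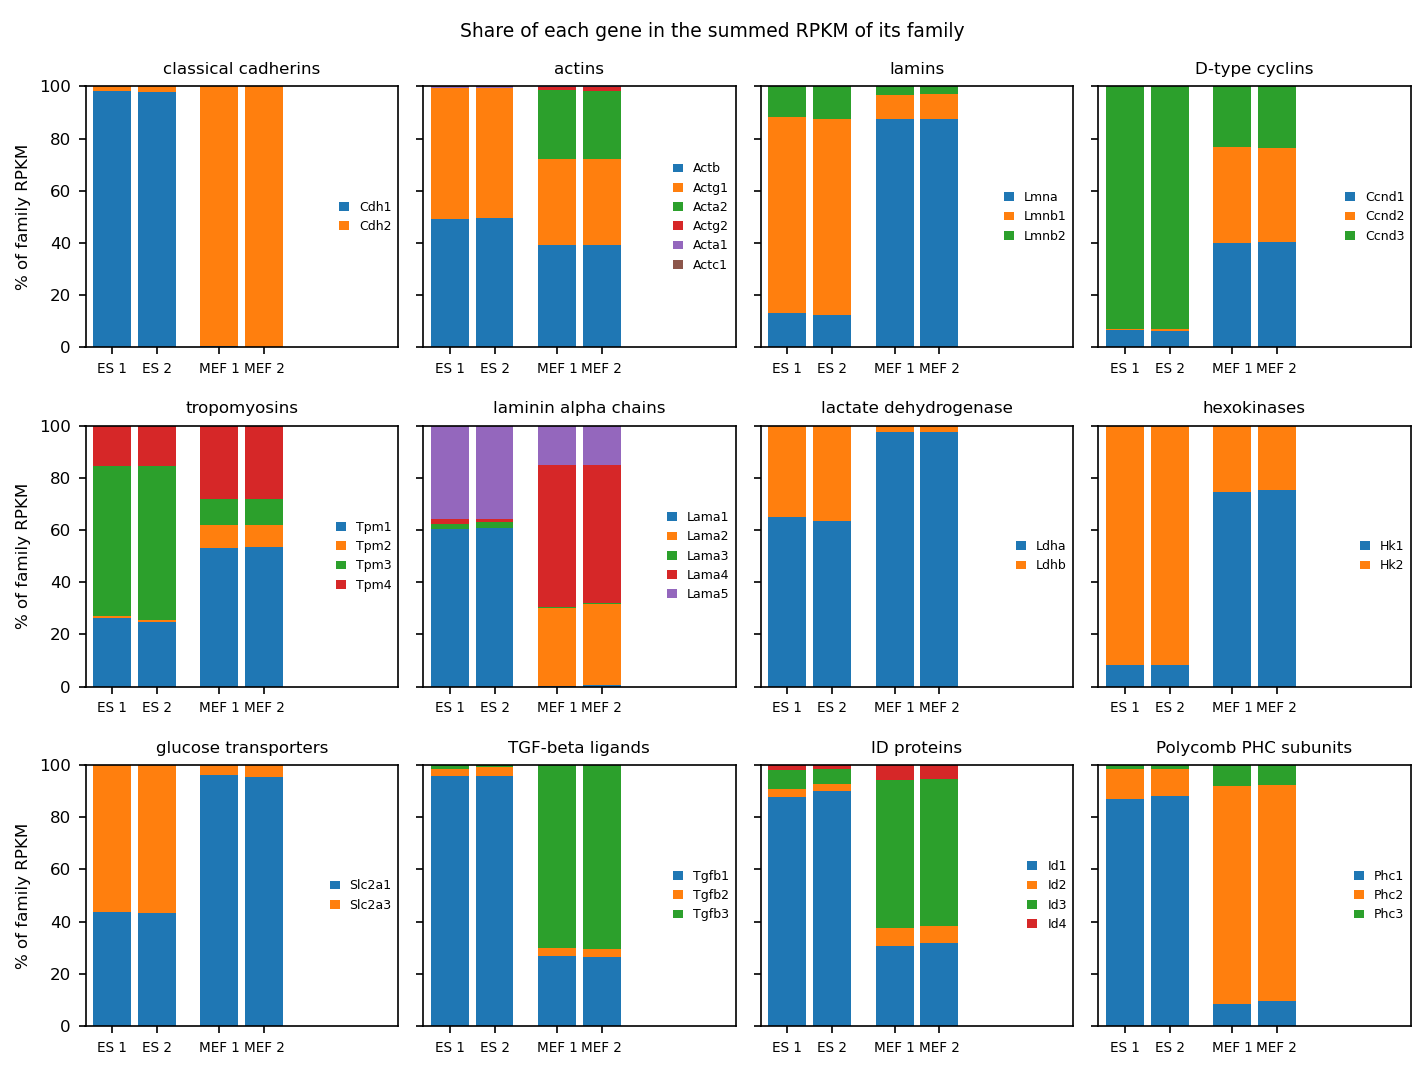
Percent of a family's summed RPKM held by each member, as stacked bars for the 2 ES and 2 MEF libraries, 1 panel for each of 12 families. The D-type cyclin, lamin and Polycomb PHC bars of ES and MEF differ in their largest member, and duplicates of a group are nearly alike.

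Strain could not be separated from cell type within ES and MEF, and the iPS clones, of BALB/c background like the MEF, gave values to set beside the result. Of the 923 genes higher in ES by 2 or more, 717 (77.7%) had all 4 clones nearer the ES mean than the MEF mean, 100 (10.8%) had all 4 nearer the MEF mean and 106 were split. Of the 1072 genes lower in ES by 2 or more, 791 (73.8%) had all 4 clones nearer ES, 130 (12.13%) all 4 nearer MEF and 151 were split. Nearness was read on the log2(RPKM + 1) scale. For genes near MEF in the clones, strain and cell type cannot be told apart. Among the largest of them upward were Aard, at 127 and 126 RPKM in ES against 0.0841 and 0 in MEF with 6.31, 4.05, 3.49 and 5.01 in the clones, Stra8, at 101 and 99.3 RPKM in ES against 0.0389 and 0.0760 in MEF with 3.25, 1.70, 3.81 and 4.46, and Dazl, described above, with 1.68, 3.395, 3.98 and 4.39. Stra8 and Dazl are germ cell genes. Downward, Bgn was at 105, 145, 102 and 88.1 RPKM in the clones, Lox at 33.0, 28.9, 28.2 and 26.7 and Col1a2 at 35.5, 54.9, 37.7 and 30.9. These were far above the ES values given above and also far below the MEF values, so in plain RPKM the clones lay nearer ES. Pou5f1, Nanog and Zfp42 were on the ES side in all 4 clones, with Pou5f1 at 1002, 1014, 1003 and 939.6. B2m was on the MEF side, with 198, 292, 182 and 157. For the 5 MHC class I genes lower in ES by 2 or more, on a scale from 0 at the MEF mean to 1 at the ES mean, the median position of the clones was −0.222 and −0.221 in 3F + IL6 and −0.181 and −0.024 in 4F. For the 23 core pluripotency genes it was 0.965 and 0.994 in 3F + IL6 and 0.947 and 0.938 in 4F.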

How the data were processed

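Poly-A RNA was sequenced with 50 bp reads after random priming and a TruSeq v2 library, per the labels' protocols, and the build is mm10, per the submitters' processing notes. The authors deposited 1 table of RPKM values per library. No header names the unit, which was read from the values, and no source used here names the aligner, counting method or gene models. Of the low values, 57.4 to 60.2% in the 4 libraries came within 0.1 read of a whole number, so read counts were not recovered, no count test was run, and depths are estimates. A stray second header line was dropped from each table, and 25 symbols that had been turned into dates stayed unmatched. Of the 23389 symbols, 21024 matched GENCODE M21, whose coordinates are given, and others matched RefSeq symbols or synonyms.

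Groups and replicate numbers came from the labels. The ES and MEF libraries were fitted in limma 3.58.1 (R 4.3.3) with a trended prior variance and Benjamini-Hochberg adjustment, with no covariate. The labels call the duplicates biological, and they were counted as 2 samples each. The spread between them over counting noise, from estimated reads, had a median chi-square ratio of 1.26 over 5635 genes in ES and 1.19 over 5794 in MEF. Alternatives changed the pseudocount, filter, scaling, prior, samples in the fit, replicate block and each library in turn, 13 in all. Genes named are the 10 largest differences in each direction with a mean of at least 5 RPKM in the higher group, leaving out predicted genes, the 5 highest genes of each group, members of 51 gene lists and 13 marker lists, and the largest differences for which all 4 clones lay nearer MEF. Some genes that meet these rules are not reported here. The members and lists were chosen with earlier results of these data known. Promoter windows are those of RefSeq (GRCm38.p6), and a motif match is a match of letters.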

Additional observations from a re-analysis of the deposited data

How the results depend on the processing

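The 2 libraries of each group limit the precision, and depth, estimated rather than counted, limits genes near 1 RPKM. Of 1378 alternative values for counts of genes and list members, 1319 stayed within 1.5 times the reported count, and of 4503 for single genes 4449 kept their direction and side of the threshold. limma called 11343 genes at an unadjusted p under 0.05. The share of calls higher in ES, 59.3%, was 55.6% after median centring and 55.4% after quantile normalization.

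The pseudocount moved the counts at 2 or more log2 units. They were 1607 higher and 1670 lower with a pseudocount of 0.1, and 329 and 494 with 5. A mean of at least 5 RPKM, which tests fewer genes, left 3058 genes lower. Under it the members called higher and lower were 4 and 0 in the primed list, 13 and 0 in germline, 0 and 16 in mesenchymal factors, 2 and 17 in proteases, 2 and 5 in integrins, 10 and 7 in Wnt, 3 and 10 in chemokines, 5 and 3 in interferon, 2 and 1 in trophoblast and 3 and 2 in neural. Under it those called higher were 15 in epithelial, 1 in collagen chains, 3 in fibroblast surface, 2 in BMP, 2 in endoderm and 0 of the RNAs without poly-A. Those called lower were 5 in Hox, 9 in IL6 and LIF, 7 in MHC class I, 11 in AP-1, 3 in DNA methylation, 6 in Polycomb, 2 in threonine and glycine and 1 of the sex chromosome genes. With no filter, members called higher were 9 in the 2-cell list, 8 in collagen chains, 1 in collagen folding, 8 in proteases, 4 in MHC class I and 9 in endoderm. After median centring or quantile normalization 2 protease genes were higher, 3 mitosis genes lower, and 1 and 2 oxidative phosphorylation genes lower, respectively. After quantile normalization 3 secretory genes were higher. In the fit of all 8 libraries 1 replication gene, 3 LIN28 list genes and 3 sterol genes were lower.

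Leaving out 1 library in turn gave 2 to 4 protease genes higher (2 without either ES library), 0 to 1 oxidative phosphorylation genes lower (1 without MEF replicate 2) and 1 to 2 RNAs without poly-A higher (2 without ES replicate 1). The numbers 1 and 2 in the titles do not pair the samples by the labels. Across the genes tested, the deviations of ES replicate 1 and MEF replicate 1 from their group means correlated at 0.26. With duplicates, replicate 2 mirrors replicate 1, so it adds no second value. A fit with the replicate block called 6698 genes higher and 4586 lower, with 923 and 1072 at 2 or more, and among the genes named only the calls of Tert and Orc4 changed side.

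Sign reversals were those of genes that were not called. Under median centring Des was −0.074, Xrcc4 −0.091 and Cdk1 −0.11, and under quantile normalization Xrcc4 was −0.0079, Des −0.095 and Cdk1 −0.23. With a pseudocount of 0.1 Nt5e was 0.00084. Leaving out 1 library in turn gave −0.035 to 0.045 for Cdk1 (below 0 without ES replicate 1 or MEF replicate 1), −0.10 to 0.097 for Nt5e, −0.047 to 0.087 for Xrcc4 (below 0 without ES replicate 1 or MEF replicate 2), −0.076 to 4.08 for Rmrp (below 0 without MEF replicate 1) and −0.56 to 1.62 for Rn45s (below 0 without ES replicate 2 or MEF replicate 1). The causes were not tested.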

Other observations

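By RPKM, which is per length and so comparable between genes, the 5 highest protein-coding genes of ES were Eef1a1 (7725 and 7804), Hspa8 (4416 and 4455), Ftl1 (4231 and 4101), Gapdh (3683 and 3794) and Rpl41 (3565 and 3424). In MEF they were Eef1a1 (5357 and 5298), Actb (5310.3 and 5214), Actg1 (4435 and 4424), Vim (3516 and 3556) and Acta2 (3562 and 3499). The translation factor gene Eef1a1 was shared, while the other 4 of MEF were all cytoskeletal. Gene families read from symbol prefixes, chosen after their values were seen and described with no test, added gene groups not on the lists. Over all genes tested 53.9% were called higher in ES and 36.9% lower, with 7.42% and 8.62% by 2 or more. All 21 tested nuclear pore genes (Nup) were called higher in ES (2 by 2 or more), with a median difference of 1.02. Of 29 RNA polymerase genes (Polr) 27 were higher (1 by 2 or more) and 0 lower. Among 76 mitochondrial ribosome genes (Mrp) 63 were higher (0 by 2 or more) and 4 lower. Cytoplasmic ribosomal protein genes (Rpl and Rps), many of which have near-identical pseudogenes, had 87 of 96 higher (5 by 2 or more) and a median of 0.59. All 9 tested S100a genes were lower in ES (5 by 2 or more). So were 13 of 16 Serpin genes (8 by 2 or more) and 20 of 22 protocadherin genes (Pcdh, 7 by 2 or more). The X-linked homeobox genes of the Rhox cluster were higher in all 6 tested, 4 of them by 2 or more. Of 318 tested zinc finger genes (Zfp), 183 were higher (25 by 2 or more) and 86 lower (5 by 2 or more), with a median of 0.36. On the higher side these values lay near the 53.9%, 7.42% and median of 0.27 of all genes tested.

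Chromosomes differed little. Median differences ran from 0.05 for chromosome 12 to 0.46 for chromosome 14, and chromosome X had 11.7% of its 436 tested genes higher by 2 or more and 10.1% lower. The X inactivation RNA Xist was at 0.0103 and 0.0575 RPKM in ES against 0.0122 and 0.00598 in MEF. The Y-linked gene Eif2s3y was at 36.9 and 36.8 RPKM in ES against 31.3 and 29.7 in MEF and Ddx3y at 11.3 and 11.8 RPKM in ES against 21.4 and 21.7 in MEF, so Y-linked RNA was measured in all 4 libraries. Kdm5d, another Y-linked gene, was at 0.148 and 0.144 RPKM in ES against 3.07 and 3.13 in MEF. Of 5 tested RNAs that mostly lack a poly-A tail, 1 was called, Scarna10, at 2.94 and 3.09 RPKM in ES and listed at 0 in MEF. Summed over Rn45s, Rpph1 and Rmrp, the levels were 89.8 and 704.1 RPKM in ES and 46.5 and 267.5 in MEF, with duplicates far apart in both groups, and limma called none of these 3 genes (adjusted p = 0.58, 0.24 and 0.3).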
